A study of Mus musculus with 4 samples.

Results

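Ungated mouse embryonic stem (ES) cells that had spent 6 h in N2B27, the differentiation medium, were compared gene by gene with ungated cells that had spent the same time in 2i. The comparison takes 2 of the 4 samples of the series, chosen by the sorting gate named in the labels, and each sample holds 24 single cells. Cells were kept when they had at least 1200000 counts on genes, at least 4400 genes detected and at most 5.2% of gene counts from the mitochondrial genome. This kept 22 of 24 cells in 2i and 21 of 24 in N2B27, 43 of the 48 ungated cells.

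Both groups were E14 wild-type mouse ES cells grown in 2i, a medium with an inhibitor of MEK and an inhibitor of GSK3, before they were sorted. The study's methods describe its 2i culture medium as holding leukemia inhibitory factor (LIF) as well, whereas the labels name 2i alone. The ungated cells were not selected by forward and side scatter, unlike the small cells of the other samples, and were plated on laminin in 2i or in N2B27 without inhibitors before single cells were sequenced by Smart-seq2. Each medium was 1 plate and 1 sequencing lane, so a difference between the media cannot be told apart from a difference between plates. Each group is 1 sample of 1 line, cells of a sample are not replicates, and no test between the groups was possible. The values below are therefore sizes with the spread over cells, and their 95% intervals are exact. Intervals on shares of cells treat the cells of a sample as independent draws, intervals on counts treat reads so, and both cover counting error only, with no variation between samples. Intervals on counts are also too narrow, since Smart-seq2 reads carry no molecular identifiers and are not independent molecules.

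Depth was similar in the 2 groups. The kept cells held 1364155 to 4844170 counts on genes in 2i (median 2776645) and 2107846 to 3587194 in N2B27 (median 2582550). The number of genes detected per cell was lower in N2B27, with a median of 8200 (7271 to 9631) against 9515.5 (8622 to 10335) in 2i. After every cell was thinned to 1360000 counts the medians were 7532 and 8820 genes. Fewer of the ERCC spike-ins, synthetic RNAs added to every lysate, were detected as well, with a median of 24 in N2B27 and 29 in 2i, and their share of counts was 1.14% and 1.28% in the median cell. The 48 pairs of sequencing indices used on a plate were used on both plates, so the same index pair names a cell of each medium. The 5 ungated cells left out had 19.9% to 39.1% mitochondrial counts.

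ES cells in 2i are held in naive pluripotency, the state of the early epiblast. The MEK inhibitor blocks the last steps of the FGF and ERK cascade, which otherwise switches on immediate early genes and, later, differentiation. The GSK3 inhibitor keeps beta-catenin from being destroyed and so mimics Wnt signaling, which lifts repression of naive genes. Taking both inhibitors away starts the passage from naive to formative pluripotency.

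The cells carried the markers of their label. Pou5f1, the core pluripotency factor Oct4, was detected in 22 of 22 cells in 2i and 21 of 21 in N2B27, and its mean normalized count was 432 and 428. Sox2, its partner, was detected in 18 and 13 cells. None of the 7 mesoderm markers, 8 endoderm markers and 7 fibroblast markers reached the level needed for comparison. Of the 7 neural and 8 trophoblast markers only Pax6, Nes, Tubb3 and Tfap2c did. The summed level of the mesoderm markers ran from 0 to 121 normalized counts over the cells in 2i and from 0 to 147 in N2B27, that of the endoderm markers from 0 to 161 and from 0 to 535, and that of the fibroblast markers from 0 to 115 and from 0 to 90.5. The neural sums ran from 0.689 to 748 and from 0 to 680, and the trophoblast sums from 0 to 555 and from 0 to 1547. Sox1 and Neurog2, which define neural precursors, and Elf5, which defines trophoblast stem cells, had no count in either group.

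A gene was compared when the average of the 2 group means was at least 20 normalized counts and at least 25% of the 43 cells had a count. The change is the log2 ratio of the group means, N2B27 over 2i, with 1 added to each mean. A gene is called here when this ratio is at least 1 or at most -1, which is a rule of size and not a test. A gene with a mean below 20 in 1 group passes the level only through the other group, which fixes the direction of its ratio. Such genes are included in the shares of all genes and of the lists below. Of 8525 genes compared, 630 (7.39%) were higher in N2B27 and 805 (9.44%) were lower, and the median log2 ratio was -0.02. The calls were concentrated in genes of low level. Of 2193 genes with a mean of 20 to 50 normalized counts, 14.6% were higher and 19.2% lower, whereas of 1032 genes with a mean of at least 500 the shares were 0.775% and 0.969%. The spike-ins, scaled to their own totals, give the spread for RNAs that were the same in both media by design. Among 17 spike-ins with a mean of 20 to 200, 5 passed the same size, and among 12 with a mean of at least 200 none did, the largest difference being 0.75. For genes, 23.0% of those between 20 and 200 and 98 of 2706 (3.62%) above 200 were called. The split between directions depended on the summary. With means of log2 values per cell in place of means of counts, 249 genes were higher and 3231 lower, and the median of all genes moved to -0.64. Of the 805 lower genes, 782 were detected in a smaller share of the N2B27 cells, as were 61.8% of all genes compared. The part that lower detection on the N2B27 plate has in the lower calls was not tested.

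**Figure D1:**
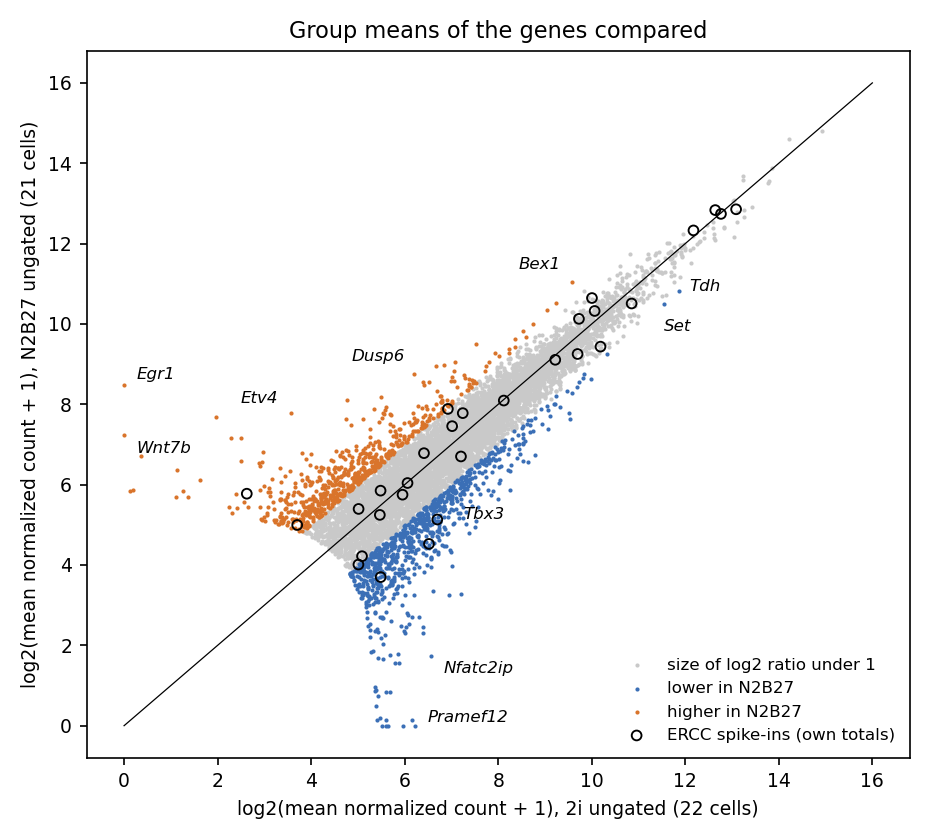
Mean normalized count of each of the 8525 genes compared, plotted as log2(mean + 1) in 2i ungated cells (x axis) against N2B27 ungated cells (y axis), with the line of equality. Orange points are the 630 higher and blue points the 805 lower genes, and open circles are the 29 spike-ins of like level on a scale of their own totals. The band of called genes is widest at low levels, where spike-ins also leave the line.

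Genes that ERK signaling induces made up the largest group of higher genes among those described here. Egr1, a zinc finger factor that is among the first genes transcribed when ERK is active, had no count in any of the 22 cells in 2i and a count in 20 of 21 cells in N2B27 (95.2%, 76.2% to 99.9%). Its normalized counts in N2B27 ran from 0 through a median of 6.22 to 3476, so the group mean of 355 was set by a subset of the cells. Against a floor of 3 counts over the 2i cells, Egr1 was at least 2967-fold higher if reads are taken as independent, which they are not. Its log2 ratio was 8.47 by the group means and 7.64 without the highest cell of each group. On means of log2 values per cell it was 4.91. An N2B27 cell was above a 2i cell in 95.2% of all pairs of cells, or in 97.6% when a tie counts as 0.5 of a pair, as it does in all shares of pairs given after this. When the cells were thinned to equal depth, 18 N2B27 cells and no 2i cell had a count.

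Dusp6, a phosphatase that removes the activating phosphates of ERK and is itself induced by it, was present in both media at different levels. Its normalized counts were 0, 1.21 and 510 in the lowest, median and highest cell in 2i and 1.61, 387 and 1423 in N2B27. The means of 72.1 and 434 gave a log2 ratio of 2.57, and the groups overlapped, with the N2B27 cell higher in 88.5% of pairs. Etv4, an ETS factor downstream of FGF receptors, was detected in 2 of 22 cells in 2i (9.09%, 1.12% to 29.2%) and in 19 of 21 in N2B27 (90.5%, 69.6% to 98.8%). Its median normalized count was 0 in 2i and 213 in N2B27, and the log2 ratio was 4.21. The 2 positive cells in 2i, at most 122, lay below the N2B27 median. Spry4, a feedback inhibitor of receptor tyrosine kinase signaling, did not reach the level for comparison. It had a count in 5 and 6 cells, with means of 7.84 and 24.3.

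Promoters of called ERK-induced genes and Wnt targets are shown because these genes report on the 2 blocked pathways, for genes with a matched promoter and not by rank. Each is the 300 bases from 250 before to 50 after the RefSeq start in GRCm38.p6, read 5′ to 3′ on the gene's strand. RefSeq promoters were matched for 5 of the 10 called ERK-induced genes, Dusp1, Dusp6, Epha2, Etv1 and Junb, and for 2 of the 5 lower Wnt targets, Sp5 and Tnfrsf19. Capitals mark TGACGTCA, the cyclic AMP response element, in Dusp1 (chr17:26508423-26508722, minus strand) and Epha2 (chr4:141300971-141301270, plus strand). Dusp6 (chr10:99262981-99263280, plus strand) holds none. In Sp5 (chr2:70474673-70474972, plus strand) and Tnfrsf19 (chr14:61037938-61038237, minus strand) they mark CTTTGAT, the site of TCF and LEF factors, on either strand.
Dusp6: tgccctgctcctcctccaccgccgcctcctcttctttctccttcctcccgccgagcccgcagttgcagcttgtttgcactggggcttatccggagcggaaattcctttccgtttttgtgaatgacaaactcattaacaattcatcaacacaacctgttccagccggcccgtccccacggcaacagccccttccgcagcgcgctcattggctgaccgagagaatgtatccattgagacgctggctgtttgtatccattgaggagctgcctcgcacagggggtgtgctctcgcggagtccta
Dusp1: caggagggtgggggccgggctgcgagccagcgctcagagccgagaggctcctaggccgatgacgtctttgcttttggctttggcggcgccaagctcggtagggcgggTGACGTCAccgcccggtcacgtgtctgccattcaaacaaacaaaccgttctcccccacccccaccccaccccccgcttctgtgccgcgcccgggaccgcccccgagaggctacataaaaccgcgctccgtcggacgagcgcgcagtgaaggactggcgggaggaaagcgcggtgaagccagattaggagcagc
Epha2: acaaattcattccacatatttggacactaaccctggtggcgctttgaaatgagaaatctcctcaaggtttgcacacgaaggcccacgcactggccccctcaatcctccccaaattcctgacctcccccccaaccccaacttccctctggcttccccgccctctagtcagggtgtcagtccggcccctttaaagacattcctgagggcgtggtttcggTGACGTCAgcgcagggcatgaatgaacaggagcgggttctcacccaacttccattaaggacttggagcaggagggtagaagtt
Sp5: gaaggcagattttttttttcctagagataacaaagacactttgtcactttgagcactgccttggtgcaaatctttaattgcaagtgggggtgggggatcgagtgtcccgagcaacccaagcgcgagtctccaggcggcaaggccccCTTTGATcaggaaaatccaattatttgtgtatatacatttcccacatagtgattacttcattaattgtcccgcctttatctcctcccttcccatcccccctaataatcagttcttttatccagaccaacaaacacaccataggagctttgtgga
Tnfrsf19: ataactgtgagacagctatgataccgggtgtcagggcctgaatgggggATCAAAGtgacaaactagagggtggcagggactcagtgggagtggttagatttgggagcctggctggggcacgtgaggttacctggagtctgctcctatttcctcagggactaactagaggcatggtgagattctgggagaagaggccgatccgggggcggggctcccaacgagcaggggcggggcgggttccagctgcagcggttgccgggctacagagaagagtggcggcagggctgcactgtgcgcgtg
Over both strands, TGACGTCA occurred in 2 of the 5 matched ERK-induced genes and in 1.79% of all 32851 promoters of this length. CTTTGAT occurred in both matched lower Wnt targets and in 3.73% of all promoters. In Tnfrsf19 it lies in 1 of 2 promoters of the table, and the matched promoter of Axin2, a Wnt target that was not lower, has 0 matches. The ETS site CCGGAA, in 14.9% of all promoters, and the CArG box, the site of serum response factor, in 1.63%, were in none of the 7 promoters. These matches describe the letters of the window and were not tested for use.

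Of the 36 ERK-induced genes of the list, 20 were compared and 16 were not. Of the 20, 10 (50%) were higher, against 7.39% of all genes compared, and none was lower. Their median log2 ratio was 1.04, against -0.02 for all genes, and is the same with Egr1 at its bound, which lies above it in either case. Egr1, Hbegf and Etv1 passed the level through the N2B27 cells, since their 2i means were below 10. Genes with 2i means of 10 to 20, Etv4, Junb and Dusp4 among them, passed in the same way. The direction of all these genes was fixed by this, and the 50% includes them. The 10 higher genes fall into 4 roles. Egr1, Etv4, Etv1, Junb and Myc are transcription factors, Dusp6, Dusp4 and Dusp1 are phosphatases that end MAP kinase signaling, Hbegf is a ligand of the EGF receptor, and Epha2 is an ephrin receptor. Below the size of a call were Spred2 (0.93), Spry1 (0.84), Dusp5 (0.49), Ier2 (0.21), Spry2 (0.19), Mcl1 (0.13), Etv5 (0.12), Fos (-0.01), Ccnd1 (-0.24) and Errfi1 (-0.29), given as log2 ratios. Etv5 and Spry2 are commonly named beside Etv4 and Spry4 as ERK targets. Etv5 was at 338 to 2034 normalized counts in every 2i cell and at 125 to 2938 in every N2B27 cell. Of the genes under the level for comparison, Phlda1 had a count in 1 of 22 cells in 2i and 13 of 21 in N2B27. Those 13 cells ran from 0.953 to 405.5 normalized counts, with most at the low end. Jun had 820 counts in 2i, spread over 4 cells with a highest normalized count of 839, and 13 counts in N2B27, and without the highest cells its ratio was -0.77.

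Within the higher genes the cells differed widely. Hbegf was detected in 7 cells in 2i and 12 in N2B27, with highest values of 46.5 and 673 and a log2 ratio of 3.85. Dusp4 was detected in 6 and 14 cells, with medians of 0 and 7.66 and a log2 ratio of 2.99. Dusp1 was detected in most cells of both groups, 18 of 22 and 19 of 21, and its medians of 97.2 and 269 gave a ratio of means of 1.78. These 3 genes show different patterns, with Hbegf and Dusp4 gained in more cells and Dusp1 at a higher level in about the same share of cells. Junb, from 4 to 12 cells, had a log2 ratio of 2.26, and Etv1, from 5 to 12 cells, one of 2.24. Epha2 was detected in 11 and 13 cells at a ratio of 1.67, and Myc in 7 and 8 cells at 1.15. The means of all 36 listed genes sum to 2482 in 2i and 4330 in N2B27. Summed over the 10 genes picked for being higher, the cells in 2i held 0.662, 225 and 1192 normalized counts in the lowest, median and highest cell, and those in N2B27 182, 1632 and 6445. Of the 22 cells in 2i, 12 lay above the lowest N2B27 cell. The median cell had a count for 3.5 of the 10 genes in 2i and 8 in N2B27.

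**Figure D2:**
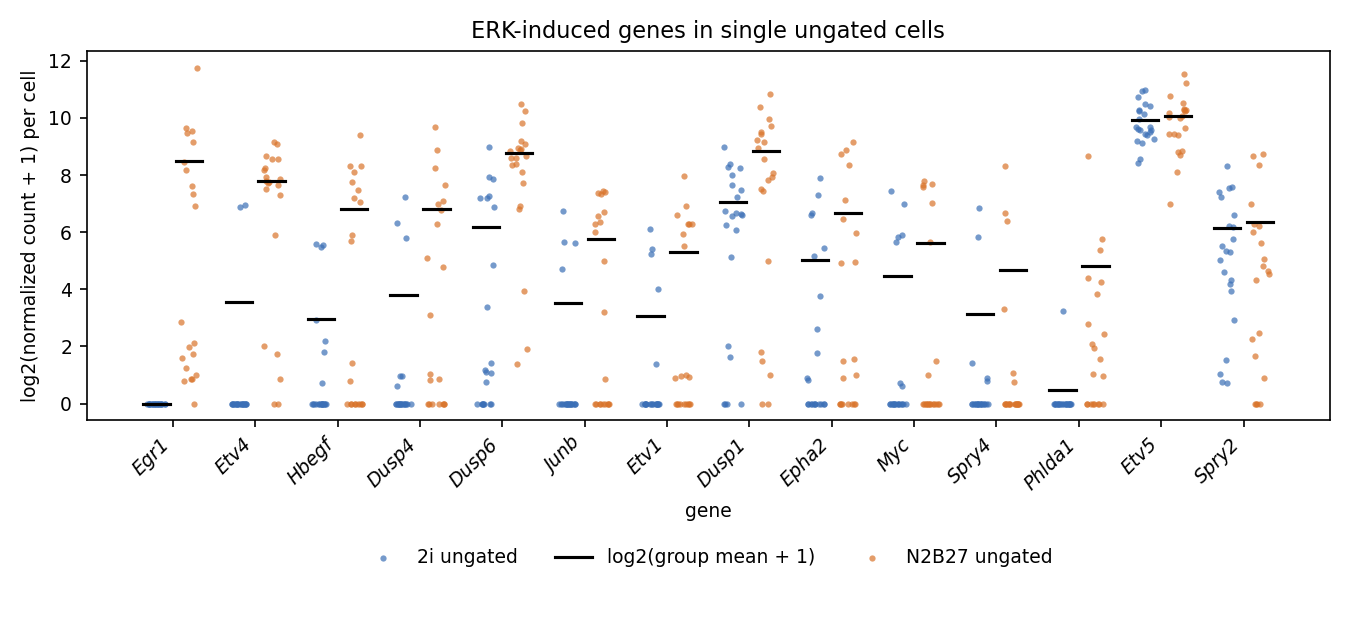
Normalized counts of ERK-induced genes in single ungated cells, as log2(count + 1) on the y axis, for the 10 higher genes in order of their ratio and for Spry4, Phlda1, Etv5 and Spry2. Each point is a cell (blue, 22 cells in 2i; orange, 21 in N2B27) and black bars are the group means on the same scale. Egr1 is at 0 in every 2i cell, whereas Etv5 is high in both media.

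Of 26 genes of the ERK cascade itself, 19 were compared, 1 was higher, 1 was lower and 17 were neither. The share of 5.26% each way stands beside 7.39% higher and 9.44% lower of all genes compared. Nf1, which encodes an inhibitor of RAS, was higher with a log2 ratio of 1.40, from 4 cells in 2i and 8 in N2B27. It passed the level through the N2B27 cells, which fixes its direction. Ptpn11, the phosphatase SHP2 that couples receptors to RAS, was lower at -1.34, with 17 and 9 cells. The kinases Map2k1 (0.28), Map2k2 (-0.34) and Mapk3 (-0.16), the ligand Fgf4 (-0.51) and the receptor Fgfr1 (-0.38) were all short of a call.

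Several targets of Wnt signaling were lower in N2B27. Of 24 genes of the list, 9 were compared, and 5 (55.6%) were lower, against 9.44% of all genes compared. Another 2 (22.2%, against 7.39%) were higher, and the median log2 ratio was -1.15. Among genes of 20 to 50 normalized counts, where Sp5 and Znrf3 lie, 19.2% were lower. Sp5, a zinc finger factor directly activated by beta-catenin, was detected in 12 of 22 cells in 2i (54.5%, 32.2% to 75.6%) and 1 of 21 in N2B27 (4.76%, 0.12% to 23.8%). The only N2B27 cell with counts reached 101 normalized counts, against a highest value of 248 in 2i, and the log2 ratio was -2.73. Without the highest cell of each group the ratio was -4.83. Sp5 passed the level through the 2i cells, which fixes its direction. Notum, a secreted enzyme that inactivates Wnt ligands, was detected in 18 and 7 cells, with medians of 27 and 0 and a ratio of -2.47. Cdx1, a homeobox gene of the posterior body axis, was detected in 16 and 2 cells, with medians of 47.3 and 0 and a ratio of -2.30. All 3 were seen in fewer N2B27 cells, and for each the highest N2B27 cell lay within the range of the 2i cells.

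Znrf3, a ubiquitin ligase that removes Wnt receptors, was detected in 11 and 3 cells with a log2 ratio of -1.81. Like Sp5, Notum and Znrf3 had N2B27 means below 20 and passed the level through the 2i cells, which fixes their direction. The share of lower Wnt targets includes all of them. Tnfrsf19, a receptor of the tumor necrosis factor family, was detected in 18 and 13 cells with a ratio of -1.15. Axin2, the most widely used target of the pathway, went the other way by the group means. It was detected in 10 cells in 2i and 6 in N2B27, yet its mean was 14.8 and 39.0, a log2 ratio of 1.34. Axin2 passed the level through the N2B27 cells, which fixes the direction of its ratio of means. Its highest value was 93.2 in 2i and 386 in N2B27. Without the highest cell of each group the ratio was 0.91, which is no longer called, and by means of log2 values it was -0.49, so its direction depended on few cells. Bmp4 was also higher (1.60) while detected in 10 cells of each group. Lef1 (0.46) and Tcf7 (-0.45), which encode the factors that beta-catenin binds, were neither. The means of the whole list sum to 613 in 2i and 487 in N2B27. Over the 5 genes picked for being lower the sum per cell was 0.689, 320 and 976 normalized counts in the lowest, median and highest cell in 2i and 0, 8.83 and 327 in N2B27. Among the 11 genes of the Wnt machinery that were compared, 9.09% were called each way, against 7.39% higher and 9.44% lower of all genes compared. Apc was lower (-2.17), Fzd7 was higher (1.11), and Ctnnb1, which encodes beta-catenin, was at 768 and 1262 (0.72). Apc passed the level through the 2i cells, which fixes its direction.

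**Figure D3:**
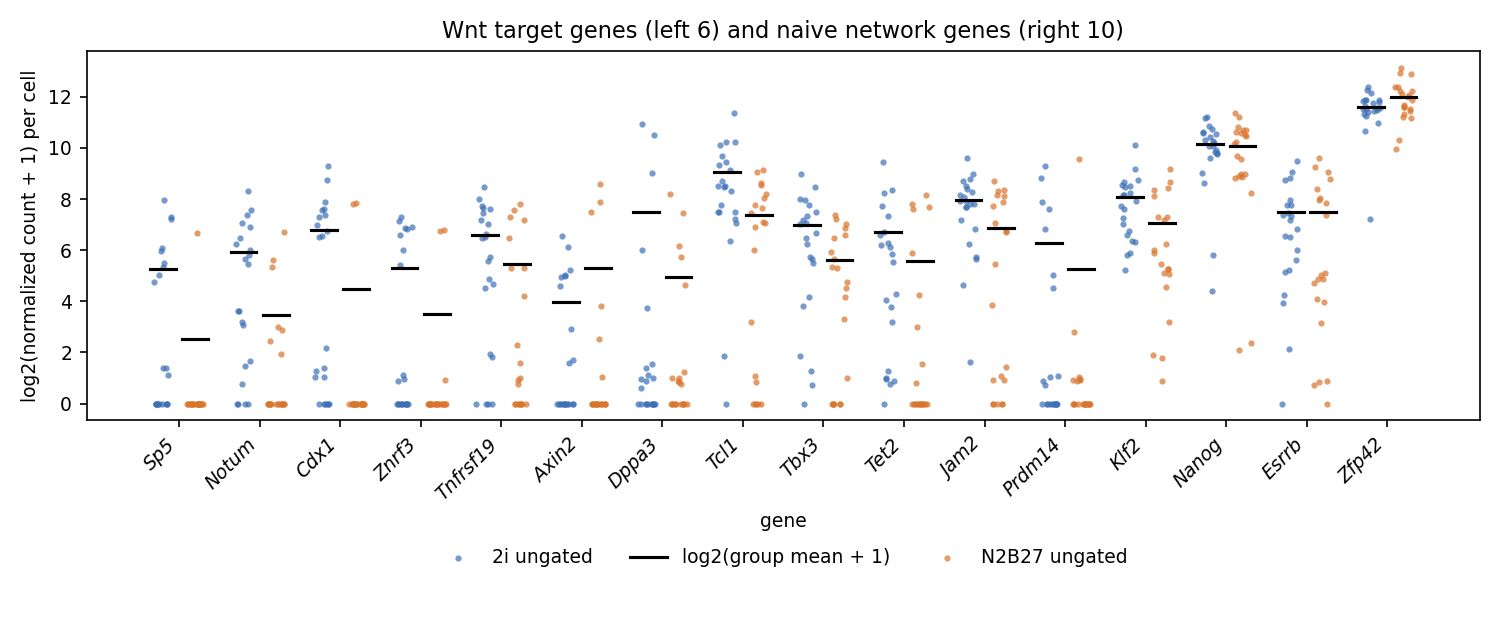
Normalized counts in single ungated cells, as log2(count + 1) on the y axis, for 6 Wnt targets and 10 genes of the naive network. Points are cells (blue, 22 in 2i; orange, 21 in N2B27) and black bars the group means on the same scale. Sp5, Notum and Cdx1 have few positive cells in N2B27, while Nanog and Zfp42 overlap throughout.

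The naive network was partly lower. Of 23 genes, 20 were compared, 7 (35%) were lower, against 9.44% of all genes compared, none was higher, and the median log2 ratio was -0.14. Tbx3, a T-box factor that links LIF and Wnt signals to naive genes, was at 0, 94.0 and 505 normalized counts in the lowest, median and highest cell in 2i and at 0, 25.7 and 165 in N2B27. It was detected in 21 and 15 cells, its means were 126 and 47.8, and the log2 ratio was -1.38. In G2/M cells alone, 14 in 2i and 15 in N2B27, the ratio of Tbx3 was -0.37, which is no call. In S cells, 8 and 4, it was -2.68, and with spike-in size factors over all cells it was -0.98. An N2B27 cell was above a 2i cell in 28.8% of pairs. Tcl1, a coactivator of the AKT kinase, had medians of 356 and 132 and a ratio of -1.69, with 21 and 16 positive cells. Dppa3, which encodes the maternal factor Stella, had the largest ratio of the list, -2.58, but was detected in 12 and 11 cells with medians of 0.68 and 0.696. Its difference therefore lay in the upper cells, at most 1939 in 2i and 295 in N2B27. Klf2, a Kruppel-like factor of the naive circuit, was detected in every cell, with medians of 228 and 58.5, and its ratio of -1 lay at the limit of a call. Tet2, Jam2 and Prdm14 were lower at -1.11, -1.09 and -1.03, and without the highest cell of each group Prdm14 was at -5.07, since 1 N2B27 cell reached 766 normalized counts. Summed over these 7 genes, which were picked for being lower, the lowest, median and highest cell held 582, 1375 and 3455 normalized counts in 2i and 86.7, 534 and 1289 in N2B27. The means of the whole list sum to 11669 in 2i and 11952 in N2B27.

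The other compared genes of the naive network were not called, and some of them differed in the median cell. Nanog was detected in every cell, with medians of 1120 in 2i and 1126 in N2B27 and a log2 ratio of -0.09. Zfp42, which encodes the naive marker REX1, had medians of 3007 and 3734 and a ratio of 0.38. The mean of Esrrb was 181 in both groups, although its median was 130 in 2i and 31.4 in N2B27. Tfcp2l1 showed the same pattern, with means of 174 and 180 and medians of 137 and 3.52. Klf4 did not reach the level for comparison, with means of 22.5 and 3.37. Of 20 compared genes of the core and general pluripotency list, Epcam (1.06) and Dppa2 (1.03) were higher and Sall1 (-1.77) was lower. These shares of 10% and 5% stand beside 7.39% higher and 9.44% lower of all genes compared. Of 24 formative and primed genes, 10 were compared, and 10% were higher and 10% lower. Etv1, which is also on the ERK list, was higher, Sfrp2, a secreted Wnt antagonist, was lower (-2.36), and Otx2 (0.80), Dnmt3a (0.65) and Dnmt3b (-0.21) were neither. Fgf5 and Pou3f1, which mark later stages of the passage, were near 0 in both groups, with means of 6.00 and 0.0404 and of 0 and 0.236.

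**Figure D4:**
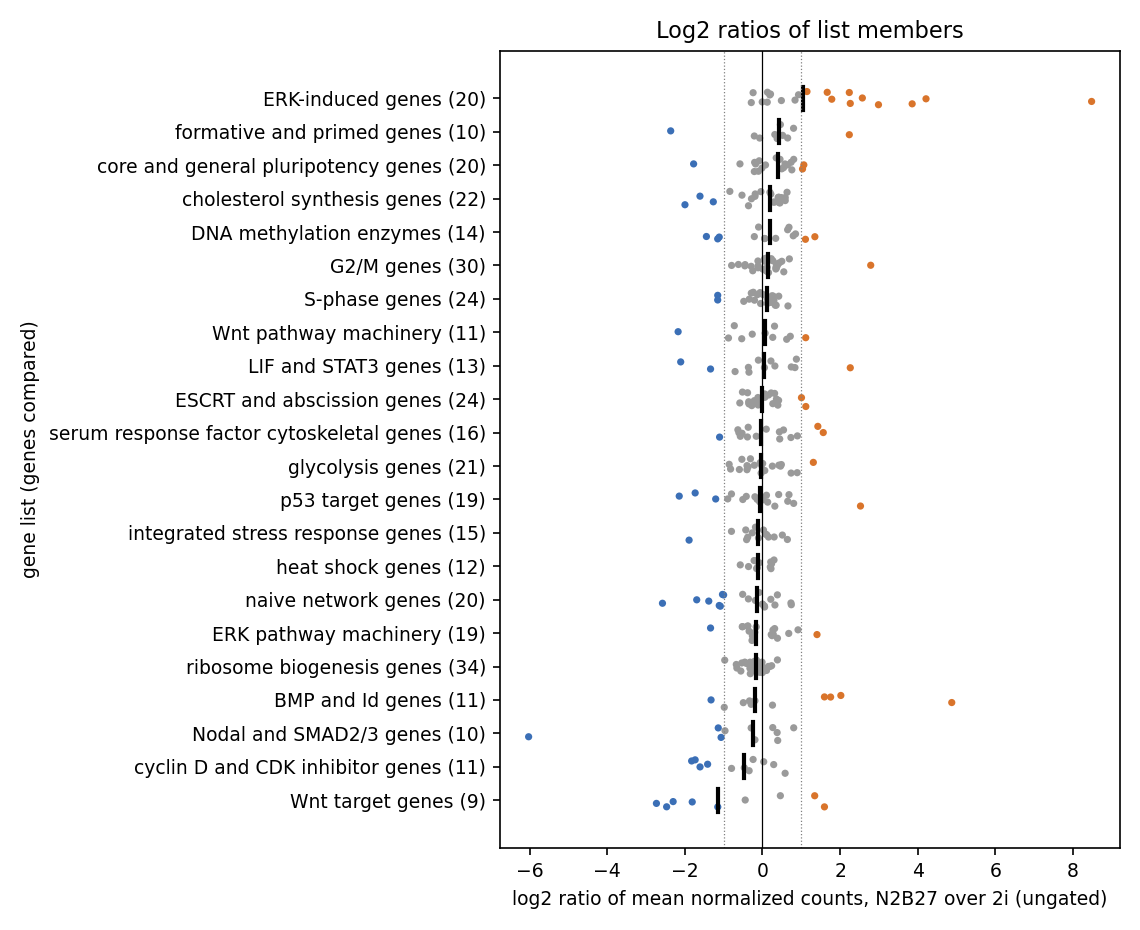
Log2 ratios of mean normalized counts, N2B27 over 2i, for the compared members of the lists with at least 9 compared genes. Each point is a gene (orange at or above 1, blue at or below -1, grey between, dotted lines at the limits), black bars are list medians, and the number of genes compared is in parentheses. The ERK-induced genes lie farthest to the right and the Wnt targets farthest to the left.

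Among other signals, the BMP and Id list had 4 higher genes (36.4%, against 7.39% of all genes compared) and 1 lower (9.09%, against 9.44%) of 11 compared, while 6 of the 11 had a ratio below 0 and the list median was -0.19. Id1, an inhibitor of basic helix-loop-helix factors, was detected in 4 cells in 2i and 13 in N2B27, with means of 3.88 and 142. It passed the level through the N2B27 cells, which fixes its direction, and the 36.4% includes it. Id2 was at 30.0 and 125 (2.02), Bambi, a decoy receptor, at 34.8 and 120 (1.75), and Id3 at 288 and 205 (-0.49). On means of log2 values per cell Id1 was at 2.62, Id2 at 1.20, Bmp4, which was also higher, at 0.46 and Bambi at 0.14. Id1, Id2 and Id3 encode related proteins that BMP induces. Smad1, which carries the BMP signal to the nucleus, was lower at -1.32. Of 13 compared genes of the LIF and STAT3 list, 15.4% were lower and 7.69% higher, against 9.44% and 7.39% of all genes compared. Il6st, which encodes the shared receptor gp130, was lower (-2.11) and so was Ptpn11, while Junb was higher. Il6st passed the level through the 2i cells and Junb through the N2B27 cells, which fixes the direction of both. Of 10 compared genes of the Nodal list, 30% were lower, against 9.44%, and none was higher. The lower ones were Lefty2, Pcsk6 and Skil, and Nodal itself was at 242 and 314 (0.38). Lefty2 passed the level through the 2i cells, which fixes its direction.

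Phase calls overlapped between the media, while some CDK inhibitor genes were lower in N2B27. The cyclone classifier, which ranks pairs of marker genes within a cell, put 0 of 22 cells in 2i in G1, 8 in S and 14 in G2/M (63.6%, 40.7% to 82.8%). In N2B27 it put 2 of 21 in G1, 4 in S and 15 in G2/M (71.4%, 47.8% to 88.7%). Of 30 G2/M genes compared, 1 (3.33%) was higher and none was lower. Of 24 S-phase genes none was higher and 2 (8.33%), Uhrf1 and Gins2, were lower, both at -1.15. The higher G2/M gene, Mki67, was detected in 9 and 11 cells with means of 10.6 and 79.3. Of 11 compared cyclin D and CDK inhibitor genes, 4 (36.4%) were lower, against 9.44% of all genes compared, and the list median was -0.47. Cdkn1a, which encodes the inhibitor p21, was at 90.5, 630 and 2554 normalized counts in the lowest, median and highest 2i cell and at 0, 158 and 1098 in N2B27, a log2 ratio of -1.73. Cdkn1c (-1.82) and the RB pathway genes Rbl1 (-1.61) and E2f1 (-1.41), which are on the same list, were the others, while Ccnd1 was at 360 and 304. Cdkn1a is also a target of p53, and of the 19 compared genes of that list Trp53inp1 (-2.14) and Plk2 (-1.21) were lower as well. Perp, a p53 target of cell adhesion, was higher (2.52), and Mdm2 (0.10) and Trp53 itself (-0.20) were neither. On the p53 list 15.8% were lower and 5.26% higher, against 9.44% and 7.39% of all genes compared. Of 24 compared genes of ESCRT and abscission, the machinery that severs sister cells, 8.33% were higher, against 7.39% of all, and none was lower. The higher ones were Chmp7 (1.12) and Pdcd6ip (1.00). Neither kept the size of a call without the highest cell of each group, at 0.92 and 0.90.

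The remaining lists varied in their share of calls. Of all genes compared, 7.39% were higher and 9.44% lower. Among 14 compared DNA methylation enzymes, of which 14.3% were higher and 21.4% lower, Dnmt1 (-1.44), which copies methylation at replication, its partner Uhrf1 and Tet2 were lower and Mbd1 (1.35) and Gadd45b (1.11) higher. Without the highest cell of each group Gadd45b was at 0.88. Of 22 cholesterol synthesis genes compared, 3 (13.6%) were lower, among them Srebf1 (-1.61) and Hsd17b7 (-1.27). Of 16 cytoskeletal targets of serum response factor compared, 12.5% were higher, Tpm2 (1.56) and Ccn1 (1.43), and 6.25% lower, Myl9 (-1.10). Of 15 genes of the integrated stress response, Chac1 (-1.89) was lower (6.67%), and of 21 glycolysis genes Eno3 (1.31) was higher (4.76%). None of the 12 heat shock genes and none of the 34 ribosome biogenesis genes compared was called, although only 8 of the 34 had a ratio above 0. The median of the last list was -0.17, and with spike-in size factors it was -0.01, with 17 above 0. Of the 17 genes of the 2-cell-like state, 1 was compared, Eif1a (-0.24). Nes (-1.09) and Tubb3 (-1.16) were lower among the 3 neural markers compared, and Nes was at -0.84 without the highest cells.

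The 12 genes highest in N2B27 relative to 2i, by the rule for named genes, were led by Egr1. Wnt7b, a Wnt ligand, had no count in 2i and a count in 15 of 21 cells in N2B27, where its highest value was 1034. It was at least 1260-fold higher against the same floor, with reads again taken as independent. Pkp3, a desmosome protein, had 6 counts in 2i and 2446 in N2B27, all in 10 cells. Krtdap was at means of 2.90 and 204, S100a6, a calcium-binding protein, at 1.19 and 81, and Rhbdf1, an inactive rhomboid that serves the sheddase of EGF receptor ligands, at 4.67 and 141. Gsn, which severs actin filaments, had 2 counts in 2i and 1285 in N2B27, a log2 ratio of pooled counts of 9.39 (7.54 to 12.44). Xlr3b had 3 and 1271 counts, a ratio of 8.79 (7.24 to 11.07), and belongs to a family of near-identical copies, so its counts are uncertain. Id1, Cyb5d2, Sema3e and Zswim4 complete the 12, with log2 ratios of 4.87, 4.60, 4.57 and 4.49. All 12 passed the level through the N2B27 cells, which fixes their direction.

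Of the 12 genes lowest in N2B27 relative to 2i, 11 were found in at most 17 of the 22 cells in 2i. All 12 passed the level through the 2i cells, which fixes their direction. Pramef12, Stx1a, Dcp1b and Slc26a11 had no count in any N2B27 cell and 1880, 1797, 1074 and 1241 counts in 2i. Against a floor of 3 counts over the N2B27 cells, with reads taken as independent, they were at least 587-fold, 488-fold, 391-fold and 377-fold lower. Stx1a is a SNARE of synaptic vesicle release, and Dcp1b is part of the complex that removes mRNA caps. Pramef12 belongs to a family of similar copies, so its counts are uncertain. Lefty2, a secreted inhibitor of Nodal that closely resembles Lefty1, had 1766 counts in 9 cells in 2i and 2 counts in N2B27, a log2 ratio of pooled counts of -9.72 (-12.77 to -7.87). Nearly all of its counts in 2i came from 1 of the 2 index lines of the plate, with means of 0.0958 and 140. Zfp866 and Zfp729b encode zinc finger proteins of a repetitive family, Ago3 an Argonaute protein, St6galnac3 a sialyltransferase, and Tmem127 a membrane protein. Their pooled log2 ratios were -9.23 (-12.28 to -7.38), -6.67, -8.52 (-10.80 to -6.97), -6.10 and -8.49 (-10.77 to -6.94), with 2, 10, 3, 19 and 3 counts in N2B27. Nfatc2ip, which encodes a protein that binds the transcription factor NFATc2, was the exception in spread. It was at 1.19, 78.7 and 282 normalized counts in the lowest, median and highest 2i cell and at 0, 0 and 29.7 in N2B27, with 22 and 4 positive cells.

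The small cells, which were sorted apart and lay on other index lines of the same 2 plates, give a separate view of the same genes. They numbered 12 in 2i and 22 in N2B27. Of the 12 most higher genes, 8 had a log2 ratio of at least 1 in small cells too, against 22.3% of all genes compared, among them Egr1 (8.95), Rhbdf1 (5.69), Xlr3b (4.86), Wnt7b (4.85), Zswim4 (4.48) and Id1 (2.77). Of the 12 most lower genes, none had a ratio of -1 or below in small cells, against 16.9% of all genes compared, and 3 had a ratio below 0. Nfatc2ip was at means of 82.2 and 81.7 in small cells of the 2 media. Among the marker genes, Dusp6 was higher in small cells as well (2.19), Tbx3 was at 20.6 and 21, and Spry4 at 0.481 and 50.3. Sp5 (-5.27), Notum (-2.06) and Cdx1 (-1.71) were lower in both gates, Etv4 (4.02), Hbegf (2.59), Dusp4 (2.05), Junb (2.96) and Etv1 (3.02) were higher in both, and Dusp1 was at 418 and 268 in small cells. Of the 12 small 2i cells, 2 stood apart, the one with 40.9% spike-in counts and the one with 15712 genes. Without them the small-cell ratios were 9.04 for Egr1, 1.99 for Dusp6, 3.83 for Etv4, -5.42 for Sp5 and -0.21 for Nfatc2ip. A difference that both gates share cannot be told apart from one between plates.

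**Figure D5:**
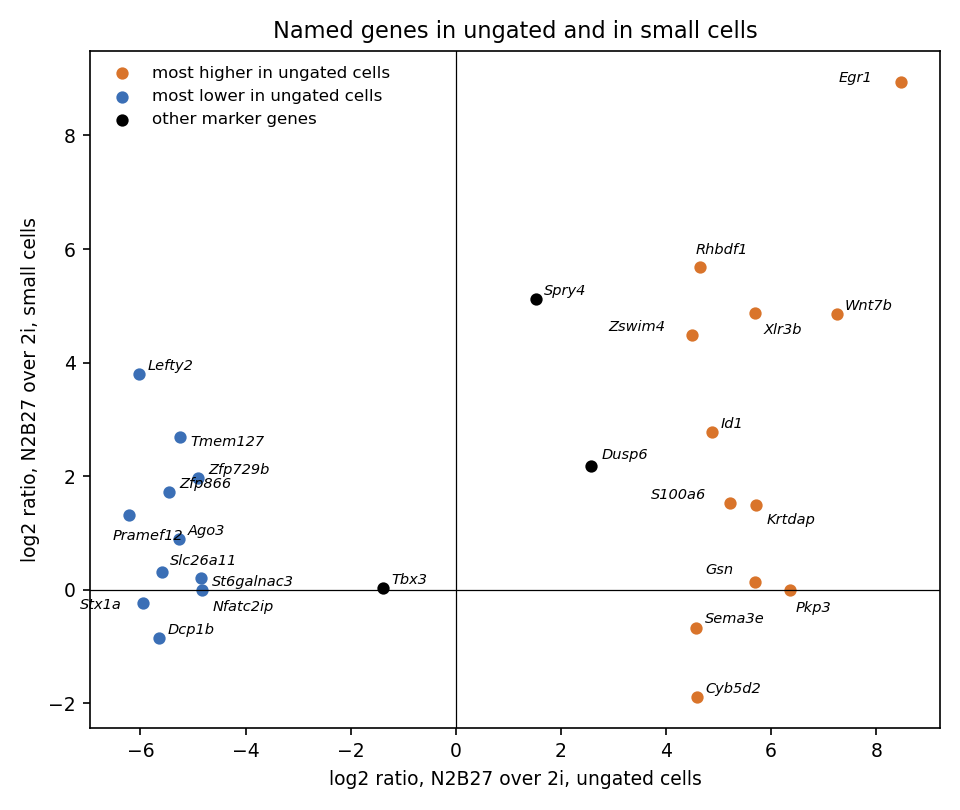
Log2 ratios of mean normalized counts, N2B27 over 2i, in ungated cells (x axis, 22 and 21 cells) and in small cells (y axis, 12 and 22 cells) for the most higher genes (orange), the most lower genes reported here (blue) and the other marker genes (black). The directions on the x axis follow from how the genes were chosen. Of the orange genes 8 lie at 1 or above on the y axis, and none of the blue genes lies at -1 or below.

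No gene separated the media completely. Over all 462 pairs of a 2i cell and an N2B27 cell, the N2B27 cell was higher in at least 95% of pairs, ties counted as before, for 3 genes (0.0352% of those compared) and in at most 5% for 4 genes (0.0469%). The first 3 were Egr1 (97.6%), Rpl39-ps (96.3%) and mt-Co2 (96.1%), and the others were Nfatc2ip (1.52%), Gm10169 (2.81%), Mif (3.46%) and Set (4.33%). Besides Egr1 and Nfatc2ip these were chosen after their values were seen. Rpl39-ps is a ribosomal protein pseudogene and Gm10169 an unnamed gene model, and reads of such copies can belong to their parent genes. Mif, a cytokine, was at 1520 to 2488 normalized counts in 2i and 597 to 1685 in N2B27, a log2 ratio of only -0.68. Set, a histone chaperone, was at 1724 to 6298 and 654 to 2552, with a ratio of -1.04. These genes overlap in few cells although their ratios are small.

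The 98 called genes with a mean of at least 200, 45 higher and 53 lower, stand beside 12 spike-ins of that level, none of which passed the same size. With 3.62% of genes of that level called, 12 spike-ins are too few to tell the called genes apart from technical spread. The following were picked after their values were seen. Bex1 was at 295, 694 and 1816 normalized counts in the lowest, median and highest 2i cell and at 346, 1779 and 6956 in N2B27, with a log2 ratio of 1.46. Cd164, a sialomucin, had medians of 525 and 1287 (1.31), Sparc, a matrix protein, of 499 and 1268 (1.29), and S100a10, the partner of annexin A2, of 84.0 and 311 (2.28). Tmsb4x, an actin-binding peptide, had a ratio of 1.97. On the lower side, Canx, a chaperone of the endoplasmic reticulum, had means of 848 and 372 (-1.18), and the long noncoding RNA Malat1 of 341 and 127 (-1.42). In small cells Canx was at 807 and 646 and Sparc at 401 and 986.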

How the data were processed

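Single ES cells were sequenced by Smart-seq2 on 2 plates, 1 per medium. The authors trimmed reads with Trim Galore 0.4.4, aligned them to mm10/GRCm38 with GSNAP 2015-09-29, used HTSeq for counting, and deposited whole-number counts per gene and cell. Of all counts, 72.4% were on the 46078 genes, 3.85% on spike-ins and 23.8% on lines that name no gene, which were left out. Columns were mapped to samples through the deposited lists of runs and raw files, and 0 columns stayed unmapped.

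DESeq2 1.42.0 size factors (R 4.3.3) were computed from 1216 genes with a count in every kept cell, and phases were called with cyclone in scran 1.30.0. Ratios were computed with pandas 2.3.3 and numpy 2.4.6, exact Poisson and Clopper-Pearson intervals with scipy 1.17.1 and figures with matplotlib 3.10.9, all under Python 3.11.15. The study fitted DESeq2 over cells, and that test was not repeated, because each medium is 1 sample. The steps were tested on simulated data with known fold changes. Doublets were not called, since each well was sorted to hold 1 cell. Sequences and motif matches are from RefSeq (GRCm38.p6).

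The genes named are Egr1, Dusp6, Spry4 and Tbx3, members of the gene lists, and the 12 most higher and the 12 most lower genes by log2 ratio that kept a size of 1 without the highest cell of each group and their sign on means of log2 values. The members, lists and alternatives were chosen with earlier results of these data known. Alternatives covered the cells kept, the scaling, the summary, the level needed for comparison, the highest cells, depth and cell-cycle phase. Some genes are not reported here.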

Additional observations from a re-analysis of the deposited data

Results flagged for a closer look

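For 22 of the genes reported here the log2 ratio of N2B27 over 2i had a size of at least 1 in both gates but opposite signs in ungated and in small cells. Each gate and medium is 1 sample, so this difference was not tested. In ungated and small cells, the genes higher in N2B27 without a gate and lower in small cells were Cyb5d2 at 4.60 and -1.89, Axin2 at 1.34 and -2.13, Bambi at 1.75 and -1.26, Eno3 at 1.31 and -3.06 and Ahctf1 at 1.98 and -3.07. Those lower without a gate were Pramef12 at -6.22 and 1.32, Lefty2 at -6.02 and 3.80, Zfp866 at -5.46 and 1.71, Tmem127 at -5.26 and 2.68, Zfp729b at -4.91 and 1.96, Znrf3 at -1.81 and 1.44, Apc at -2.17 and 1.11 and Sall1 at -1.77 and 1.11. Further such genes were Il6st at -2.11 and 2.27, Skil at -1.07 and 1.23, Dnmt1 at -1.44 and 2.10, Myl9 at -1.10 and 1.27, Chac1 at -1.89 and 2.56, Srebf1 at -1.61 and 2.15, E2f1 at -1.41 and 1.03, Trp53inp1 at -2.14 and 2.06 and Nes at -1.09 and 2.98. Without the 2 small 2i cells that stood apart, 21 of the 22 genes still had opposite signs, Ahctf1 being the exception. Most of these genes had low means, in the range where spike-ins also passed the size of a call.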

How the results depend on the processing

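With 1 sample per group no replicate could be left out and no alternative gave a test. No paired analysis was possible because each group is 1 sample. Of 17 spike-ins with a mean of 20 to 200, 5 passed the size of a call, so ratios of genes under 200 normalized counts are the least secure. Of 115 summary values recomputed, those that moved follow. Without a filter on cells, 1635 genes were higher, 2 Wnt targets and 3 naive genes lower and 3 formative genes higher, with a median log2 ratio of 0.36. The median was 0.0180 with each cell scaled to its own total, 0.0347 with scran, 0.0474 with spike-in factors, 0.0177 with pooled counts and 0.0140 on thinned counts. Pooled counts gave 4 lower naive and 2 higher formative genes. Means of log2 values gave 249 higher and 3231 lower, with a median of -0.64. Leaving out the highest cells gave 1237 lower, with a median of -0.11. Comparing every gene with a count gave 2235 higher, 3238 lower, 17 ERK-induced, 11 Wnt and 4 formative genes, with a median of -0.0530. Cells in S phase alone gave 1092 higher, 2098 lower, 3 Wnt and 3 formative genes, with a median of -0.17. A mean of at least 200, chosen after seeing the data, gave 45 higher and 53 lower. Of 1872 values recomputed for named genes, 27 reversed. In S phase these were Spry4 (-4.14), Krtdap (-1.43), Id1 (-1.69), Dusp4 (-0.0875), Etv1 (-3.37), Epha2 (-1.20), Axin2 (-2.62), Tnfrsf19 (0.49), Bmp4 (-3.39), Bambi (-5.88), Gadd45b (-0.76), Cdkn1c (0.26), E2f1 (0.55), Perp (-2.51), Lgals1 (-0.61) and Slc7a7 (-0.10), from 8 and 4 cells. Without the cell filter they were Axin2 (-0.46), Tet2 (3.76), Cdkn1a (0.89), Chmp7 (-0.60), Nedd4 (0.15), Malat1 (0.52), Lima1 (2.34) and Plk3 (-0.26), from all 48 cells. On means of log2 values they were Axin2 (-0.49) and Nes (0.0071), and in G2/M cells Plk2 (0.0954). The cause was not tested.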

Other observations

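Of 8 enzymes of threonine, glycine and serine breakdown chosen after their values were seen, 3 were lower in N2B27 by the size of a call. Mouse ES cells are known to depend on threonine breakdown through Tdh, threonine dehydrogenase. Tdh was at 1536, 3801 and 6079 normalized counts in the lowest, median and highest 2i cell and at 371, 1564 and 3796 in N2B27, with a log2 ratio of -1.06, and the N2B27 cell was higher in 9.09% of cell pairs. Gcat, which takes the next step to glycine, had means of 1014 and 394 (-1.36). Amt, a subunit of the glycine cleavage system, had means of 816 and 342 (-1.25). The other subunits Gldc (-0.47), Gcsh (-0.07) and Dld (0.58) and the serine enzymes Shmt1 (-0.59) and Shmt2 (-0.38) were short of a call. In small cells the log2 ratios were -0.69 for Tdh, -0.55 for Gcat and -1.17 for Amt. In ungated cells without the filter on cells they were -0.71, -0.08 and -0.95, all short of a call. In ungated S cells they were -0.95, -0.97 and -2.03. Tdh and Amt were short of a call in ungated G2/M cells, at -0.95 and -0.99.

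Of 79 ribosomal protein genes compared, none was called, 60 had a ratio above 0 and their median log2 ratio was 0.21, between 0.21 and 0.28 across the scalings tried. Genes with transcripts under 1000 bases, 918 of those compared, had a median of 0.12, and the 347 of at least 8000 bases one of -0.09. The part of transcript length in the ribosomal protein values was not tested.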
